A study of Bos taurus and Mus musculus with 16 samples.

Results

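The genes described here are 6 regulators of the primitive endoderm, named Gata4, Gata6, Pdgfra, Sox17, Sox7 and Hnf4a, and they were taken by symbol, ignoring case, from a mouse table of 16655 genes and a bovine table of 14852 genes. Of the 6, rows for 5 were found in mouse and for 4 in cattle. Sox7 had no row in either table and SOX17 none in the bovine one, so they were not analysed here. Only genes averaging 10 or more normalized reads in a table were tested, where a normalized read is a read count divided by the size factor of its sample. Gata4, Gata6, Pdgfra and Sox17 passed this in mouse, and GATA6, PDGFRA and HNF4A in cattle. Hnf4a in mouse and GATA4 in cattle fell below it and are given by their values.

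The samples came from preimplantation embryos that had been injected as zygotes. The edited mouse group (2 samples) received mRNA of BE3, a cytosine base editor built from a Cas9 nickase and a cytidine deaminase, with a mix of guide RNAs against Tead4, and the mouse control group (2 samples) received BE3 mRNA alone. Both were collected as morulae on day 3.25. The edited bovine group (6 samples) received BE3 mRNA with guide RNAs against TEAD4, the bovine control group (6 samples) BE3 mRNA alone, and both were collected as blastocysts on day 7.0. All groups therefore carried the editor, and the guide RNAs were given to the edited groups only, so effects of the guides other than on TEAD4 cannot be told apart from those of the lost gene. Strain, breed, the number of embryos in a sample, the share of alleles edited and whether samples came from separate injections are not stated in those sources that were used. The p-values therefore reflect the spread among the samples alone, and that spread may be technical.

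The primitive endoderm, called hypoblast in cattle, is the extraembryonic epithelium that forms beside the pluripotent epiblast in the inner cell mass and gives rise to the yolk sac endoderm. In mouse, Gata6 is present first, together with the epiblast factor Nanog in the same cells, and FGF4 acting through its receptors and the ERK cascade then favours Gata6 in the future endoderm. Pdgfra, Sox17, Gata4 and Sox7 come on after Gata6, roughly in that order, and Hnf4a belongs to the later visceral endoderm. A mouse morula is collected before these lineages have separated, while a bovine blastocyst of day 7 contains trophectoderm and an inner cell mass in which epiblast and hypoblast are separating.

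Reads assigned to genes numbered 4386305 and 6109425 in the edited mouse libraries and 4187826 and 3642907 in the controls. The bovine libraries held 817329 to 2259064 reads in the edited group and 934078 to 2501592 in the control group. A count of 3 reads, taken as the limit of detection, corresponded to 2.13 to 3.79 normalized reads in the mouse libraries and to 1.71 to 5.56 in the bovine ones, which covers counting error only. Tead4 stood at 57.2 and 76.5 normalized reads in edited morulae, against 458 and 519 in controls (limma log2 fold change -2.86 ± 0.25, SE, n = 2 each, adjusted p = 5.37e-09). TEAD4 stood at 22.6 at the lowest, 37.5 at the median and 65.6 at the highest in edited bovine blastocysts, against 61.2, 92.9 and 125 in controls. The highest edited bovine library thus lay above the lowest control. The bovine log2 fold change was -1.25 ± 0.25 (SE, n = 6 per group) and its adjusted p was 0.235 in limma and 0.00660 in DESeq2 on recovered reads, and the authors' deposited table lists 0.0142.

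In mouse morulae, Gata4 was the regulator that rose after editing, while Gata6, Pdgfra and Sox17 did not pass the test. Gata4 reached 5.50 times its control mean, and Gata6 stood at 79.4% of its control mean. Gata4 met the filter through its edited libraries, with a mean of 39.7 normalized reads there and 7.22 in controls. Its entry to the test thus depended on its rise. With limma on log2(normalized reads + 1), 15.3% of the 11386 tested genes were called at a Benjamini-Hochberg adjusted p under 0.05, 6.92% as higher and 8.38% as lower in edited morulae. Of the 4 tested regulators 1 was called, a number too small to be read against that background. Without the filter on low values 9.01% of 16655 genes were called, and of the 5 listed regulators again only Gata4.

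Gata6 (chromosome 18, 11052064 to 11085635, plus strand, GRCm38) encodes a zinc finger factor that starts the endoderm programme. It stood at 1248 and 1240.3 normalized reads in edited morulae, against 1516 and 1616 in controls. Every edited value lay below every control value. Groups without overlap were common with so few samples: they were found for 57.8% of all tested genes, 28.6% with the edited and 29.2% with the control values on top, and for Gata4 and Gata6 among the 4 tested regulators. Gata6 had a log2 fold change of -0.33 ± 0.17 (SE, n = 2 each) with a 95% interval of -0.67 to 0.01 (limma adjusted p = 0.190). When every sample was scaled to the same total, which put the median of all genes at 0.12, it was -0.21. Exons of 1010001N08Rik, annotated on the opposite strand, overlap those of Gata6. Whether the counting used strand is not stated in those sources, so reads of the pair cannot be told apart where they overlap. 1010001N08Rik stood at 137 and 135 normalized reads in edited morulae, against 225 and 216 in controls, and it did not pass.

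Gata4 (chromosome 14, 63198922 to 63271692, minus strand), a related zinc finger factor that maintains the endoderm after Gata6, stood at 39.1 and 40.4 normalized reads in edited morulae, against 5.59 and 8.85 in controls. These values rest on 41 and 57 reads in the edited libraries and on 5 and 7 reads in the controls. The edited samples lay close together and far above both controls. In limma the log2 fold change was 2.34 ± 0.56 (SE, n = 2 each), the 95% interval 1.18 to 3.50 and the adjusted p 0.00549. It was 2.48 with edgeR (adjusted p = 0.00561) and 2.48 with DESeq2 (adjusted p = 0.0140), both on recovered reads, and the authors' deposited table lists 2.47 (adjusted p = 0.0148). Among the fits that left out 1 library it ranged from 2.05 without control library 1 to 2.63 without control library 2, with adjusted p up to 0.0493. In such bulk samples, a change in the number of cells with a transcript and a change in its amount per cell cannot be told apart.

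Gata4 is also a gene of ovarian somatic cells, which can adhere to embryos, and of the 16 markers of cumulus, granulosa and theca cells 4 had a row in the mouse table (Amhr2, Foxl2, Star and Col1a1). Their summed level was 120.1 and 87.2 normalized reads in edited morulae, against 93.9 and 45.5 in controls, so the groups overlapped. Fshr, Amh and Cyp19a1, which define granulosa cells, had no row. Of the 9 blood markers, Hba-a1 and Alas2 had a row, and their sum was 39.1 and 9.92 in edited morulae, against 14.5 and 1.26 in controls. The part of such cells in the Gata4 result was not tested.

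**Figure D1:**
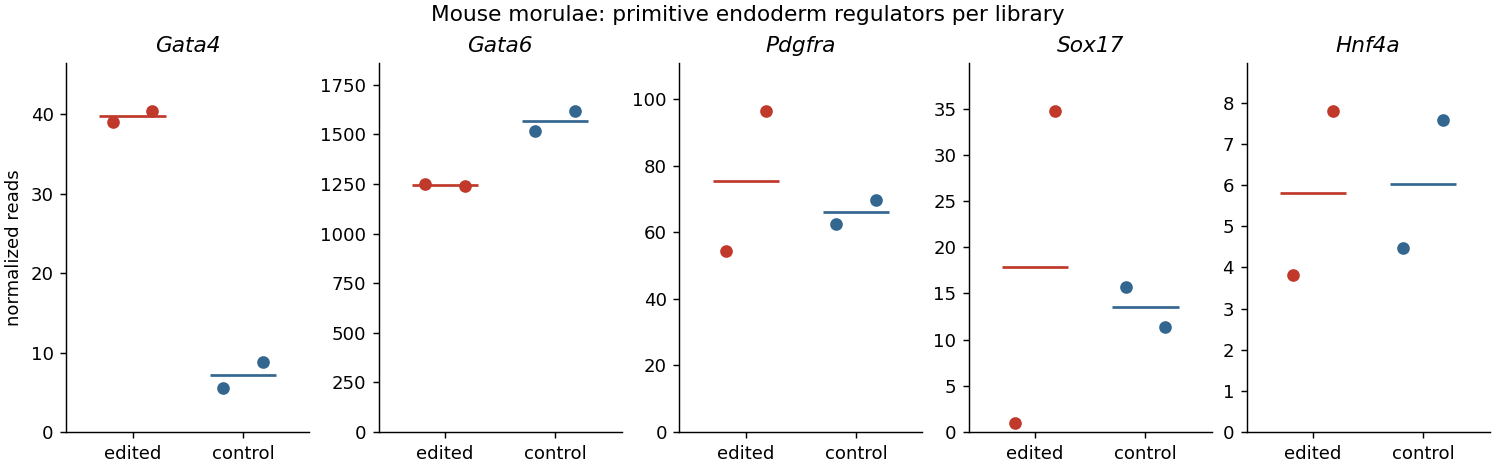
Normalized reads of the 5 regulators listed in the mouse table, 1 panel per gene with its own linear axis from 0; points are libraries (2 edited, 2 control) and lines are group means. Gata4 stands at 39.1 and 40.4 in edited morulae and at 5.59 and 8.85 in controls, while the edited libraries of Sox17 lie on either side of its controls.

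Pdgfra (chromosome 5, 75152292 to 75198215, plus strand) encodes the receptor tyrosine kinase for PDGF-A that marks endoderm precursors on their surface. It stood at 54.3 and 96.4 normalized reads in edited morulae, against 62.6 and 69.6 in controls. One edited library lay below both controls and the other above both. Its log2 fold change was 0.13 ± 0.34 (SE, n = 2 each) with a 95% interval of -0.57 to 0.83 (limma adjusted p = 0.836). Leaving out edited library 2 turned it to -0.28, and leaving out edited library 1 put it at 0.54.

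Sox17 (chromosome 1, 4490931 to 4497354, minus strand) encodes an HMG-box factor of the endoderm. It stood at 0.953 and 34.7 normalized reads in edited morulae, against 15.6 and 11.4 in controls, which are 1 and 49 reads against 14 and 9 reads. One edited library lay below both controls and the other above both. The fold change on the log2 scale was -0.78 ± 0.91 (SE, n = 2 each, adjusted p = 0.618) in limma but 0.45 in edgeR and 0.40 in DESeq2 on recovered reads, so its sign was not fixed by these data. Without edited library 1 it was 1.32 (limma adjusted p = 0.207).

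Hnf4a (chromosome 2, 163506808 to 163572910, plus strand), a nuclear receptor gene, was below the filter with 3.81 and 7.80 normalized reads in edited morulae, against 4.47 and 7.59 in controls. These are 4 and 11 reads in the edited and 4 and 6 reads in the control libraries, and the groups overlapped. Edited library 2 stood above edited library 1 for Pdgfra, Sox17 and Hnf4a. The same held for Nanog, the epiblast factor that opposes Gata6, with 738 and 1884 normalized reads in edited morulae, against 1618 and 1918 in controls. Gata6 and Gata4, in contrast, differed little between the edited libraries. The ratio of Gata6 to Nanog normalized reads was 1.69 and 0.658 in edited morulae, against 0.937 and 0.843 in controls, so the edited libraries lay on either side of the controls.

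Levels of different genes were set side by side per kilobase of exon sequence, with the exons of all GENCODE M21 transcripts of a gene merged. In edited morulae the mean level was 191 normalized reads per kilobase for Gata6, 10.2 for Gata4, 7.52 for Pdgfra and 3.74 for Sox17, against 241, 1.85, 6.59 and 2.83 in controls, and Hnf4a lay at 0.790 to 1.61 in edited and 0.926 to 1.57 in control morulae. Gata6 thus stood far above the other regulators in both groups, and exceeded 91.3% of the genes with a known length in edited and 92.3% in control morulae. Gata4 was second in edited morulae, where its values of 10.01 to 10.35 did not overlap those of Pdgfra at 5.42 to 9.62. In controls Gata4 came after Pdgfra and Sox17, and its range of 1.43 to 2.27 overlapped that of Hnf4a. In edited morulae Sox17 could not be placed against Pdgfra or Hnf4a, since its libraries ranged from 0.200 to 7.28.

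**Figure D2:**
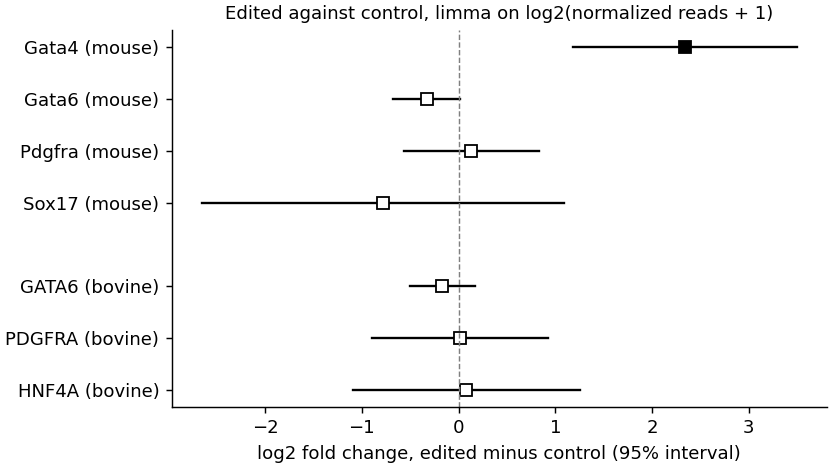
Log2 fold change, edited minus control, of each tested regulator in mouse morulae (4 genes) and bovine blastocysts (3 genes) from limma; squares are estimates, lines 95% intervals, and a filled square is an adjusted p under 0.05. The filled square is Gata4 at 2.34, and the interval of every other regulator includes 0.

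In bovine blastocysts none of the 3 tested regulators passed the test between edited and control samples with limma, edgeR or DESeq2, and none had an unadjusted p under 0.05. GATA6 averaged 353 ± 45.7 normalized reads in edited and 399.8 ± 71.0 in control blastocysts (SD, n = 6 each). PDGFRA and HNF4A varied several-fold among the samples of each group. Over the whole table limma called 1 gene, or 0.0113% of the 8884 tested, while 522 genes had an unadjusted p under 0.05. DESeq2 on recovered reads called 0.0563%.

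GATA6 ranged from 313 over a median of 346 to 430 normalized reads in edited blastocysts, against 315, 399.5 and 481 in controls. The ranges overlapped in part, with control samples 2 and 3 (476 and 481) above every edited sample and edited sample 6 (313) just below every control. The highest sample exceeded the lowest by 1.37 times in the edited and 1.53 times in the control group. Its log2 fold change was -0.17 ± 0.16 (SE, n = 6 each, limma adjusted p = 0.845), and the 95% interval spans 0.705-fold to 1.12-fold. When samples were scaled to the same total, which put the median of all genes at 0.13, the log2 fold change was -0.05.

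PDGFRA ranged from 39.1 over a median of 51.7 to 243 normalized reads in edited blastocysts, against 33.2, 84.6 and 146 in controls. Its values fell into 2 ranges within each group. In 7 samples it lay between 33.2 and 53.2, and in the other 5 samples (edited 2 and 3, control 3, 4 and 5) between 122 and 243, with none between. Between the groups PDGFRA differed by 0.02 ± 0.44 on the log2 scale (SE, n = 6 each, limma adjusted p = 0.994), with a 95% interval from 0.538-fold to 1.90-fold. Leaving out 1 sample at a time moved it between -0.33 and 0.22.

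HNF4A ranged from 16.1 over a median of 29.0 to 72.3 normalized reads in edited blastocysts, against 4.62, 39.6 and 124 in controls. Both the lowest and the highest value belonged to controls, and the lowest, in control sample 2, rests on 3 reads. The mean was 80.9% of the control mean, while the log2 fold change was 0.08 ± 0.56 (SE, n = 6 each, limma adjusted p = 0.982). With edgeR on recovered reads it was -0.38, so its sign depended on the method. The 95% interval of limma spans 0.468-fold to 2.39-fold.

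GATA4 was below the filter in cattle, with 0 to 6.64 normalized reads in edited blastocysts and 1.54 to 6.36 in controls. This is 25 reads over the 6 edited libraries and 30 over the 6 controls, and 1 edited library held none. The groups overlapped, and most libraries lay at or near the limit of detection. The difference between the species in Gata4 was not tested, since the embryos also differed in stage and the tables were normalized separately.

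**Figure D3:**
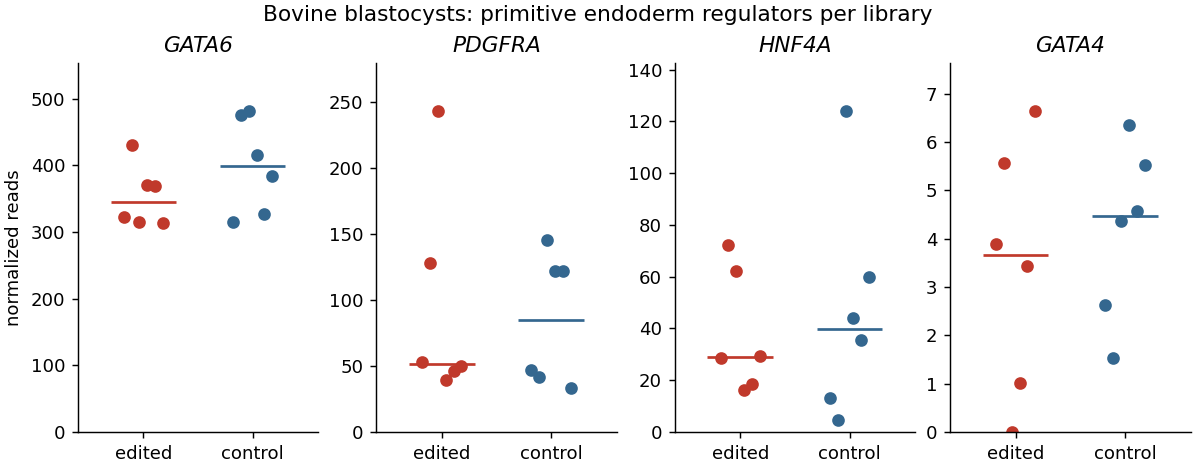
Normalized reads of the 4 regulators listed in the bovine table, 1 panel per gene with its own linear axis from 0; points are libraries (6 edited, 6 control) and lines are group medians. Edited and control values overlap in each panel, and PDGFRA leaves a gap between 53.2 and 122.

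How the bovine regulators varied together was examined over the 12 samples as Pearson's r and Spearman's rho of log2(normalized reads + 1), with permutation tests adjusted over the 3 pairs. No pair passed. GATA6 had r = 0.07 with PDGFRA (rho = 0.01) and r = 0.09 with HNF4A (rho = 0.29), with adjusted permutation p = 0.833 for both coefficients r. PDGFRA and HNF4A had r = 0.65 (permutation p = 0.0216, adjusted p = 0.0649) and rho = 0.68 (adjusted permutation p = 0.0542). The coefficient r was 0.51 without the 2 samples farthest from the PDGFRA median, 0.90 within the edited and 0.56 within the control group. Over the fits without 1 sample, r of this pair ranged from 0.59 without control sample 3 (adjusted permutation p = 0.168) to 0.82 without control sample 6. The latter was the only one of these fits in which the pair passed (adjusted permutation p = 0.00534). Because PDGFRA fell into separate ranges, these coefficients describe the 12 samples as a whole. Within the 7 samples of the lower range, a split drawn from these same values, r was -0.16 (permutation p = 0.733) and rho 0.04. PDGFRA spans only 33.2 to 53.2 normalized reads there, which can itself lower r. These coefficients therefore cannot decide whether the relation holds. The relation within the 5 samples of the upper range was not tested. HNF4A stood at 35.4 to 124 normalized reads in the 5 samples of the upper PDGFRA range and at 4.62 to 59.7 in the 7 of the lower range.

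**Figure D4:**
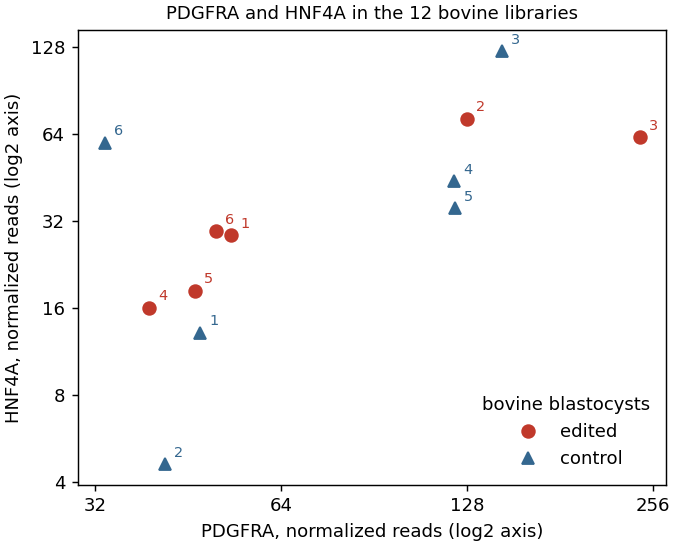
PDGFRA against HNF4A in the 12 bovine libraries, in normalized reads on log2 axes; circles are edited and triangles control libraries, numbered by replicate. The 5 libraries at the right have PDGFRA of 122 or more and HNF4A of 35.4 or more, and libraries of both groups lie in both ranges.

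HNF4A and GATA6 were further set against 7 tested endoderm markers, NANOG and SOX2 over the same 12 samples, in 18 relations chosen after values had been seen. DAB2, an endocytic adaptor that marks endoderm in mouse, ran opposite to HNF4A (r = -0.85, adjusted permutation p = 0.00756, rho = -0.89, adjusted permutation p = 0.00432), and r was -0.79 without the 2 samples farthest from the HNF4A median. DAB2 stood at 722 to 1011 normalized reads in edited and 592 to 1050.2 in control blastocysts. Within the groups r was -0.72 in edited and -0.90 in control samples. None of the 9 relations with GATA6 passed. With the log2 total of reads, r was -0.01 for HNF4A, -0.15 for PDGFRA and -0.40 for GATA6. With the share of reads taken by the ribosomal RNA gene RN18S1, which was 9.27% to 19.7% in edited and 12.4% to 36.6% in control libraries, r was 0.33 for HNF4A, -0.13 for PDGFRA and 0.53 for GATA6. These coefficients describe the 12 libraries, and the part of either measure in the relations was not tested.

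The genes whose bovine pattern was most like each regulator were taken as the 5 highest Pearson coefficients over the 12 samples among the 8884 tested genes, as a description with no test. For GATA6 these included MDC1, CLCN5, R3HDM2 and HUWE1 (r = 0.88 each). For PDGFRA they were CHP1 (0.94), CASP6 (0.94), H3F3A (0.93), FLRT3 (0.92) and TPP2 (0.90). For HNF4A they were EWSR1 (0.91), SLCO5A1 (0.90), KDM2B (0.90), SFPQ (0.88) and DDX46 (0.87). No regulator stood among the 5 nearest genes of another. HNF4A was number 307 by likeness to PDGFRA, and PDGFRA number 3826 by likeness to GATA6.

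Genes around these regulators were then counted in lists, whose tested members in mouse are plotted beside the regulators. The background for the mouse counts below is 15.3% of all tested genes called, 6.92% as higher and 8.38% as lower in edited morulae. Of 22 further endoderm markers 9 were tested in mouse, and 3 fell and 1 rose, at a median log2 fold change of -0.04 against -0.0049 over all genes. Lrp2 (megalin) and Dab2, which work together in endocytosis, fell. The morulae were collected before the lineages had separated, and of 11 tested trophectoderm markers 5 fell and 1 rose. Which cells the fall of Lrp2 and Dab2 belonged to was not tested. Lrp2 averaged 23.3 ± 4.84 normalized reads in edited morulae and 1985 ± 249 in controls, and Dab2 103 ± 21.5 in edited morulae and 1370 ± 34.3 in controls (SD, n = 2 each). Apoa1, which encodes an apolipoprotein, fell (-0.84) and Cubn (cubilin), the partner receptor of megalin, rose (0.83). Both of those calls were lost with DESeq2, without the filter on low values and without control library 1. The fall of Apoa1 was also lost with equal totals, and the rise of Cubn in 3 of the fits that left out 1 library. The list median was 0.08 with equal totals and 0.12 without the filter. Amn, the membrane anchor of cubilin, stood at 0.38 and was not called. In cattle 7 markers were tested, none passed with limma, edgeR or DESeq2, and LRP2 averaged 999.7 ± 282 normalized reads in edited and 885 ± 159 in control blastocysts (SD, n = 6 each).

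The endoderm lays down a basement membrane, and of 18 genes for its components and their processing 17 were tested in mouse, of which 2 rose and 2 fell, at a median of 0.13. Serpinh1, a collagen chaperone gene, stood at 273 and 17.7 normalized reads in edited morulae, against 4.47 and 5.06 in controls, and its call was lost with robust limma. Plod2, which encodes a collagen lysyl hydroxylase, rose (1.42 ± 0.25, SE, n = 2 each, limma), and 4 genes of the list rose without edited library 2, as with equal totals, where 1 fell. Nid2 (-2.15) and Lamc1 (-0.83), genes of nidogen and laminin subunits, fell, but both calls were lost when either control library was left out, and that of Lamc1 also without edited library 1 and with equal totals. The collagen IV genes Col4a1 (0.13) and Col4a2 (0.08) did not pass.

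In cattle none of the 15 tested genes of this list passed with limma or edgeR and 1 with DESeq2, while 3 had an unadjusted p under 0.05 in limma. LAMA1, the laminin chain of the first embryonic basement membranes, was picked out after its values were seen. It ranged from 2.295 over a median of 6.32 to 18.4 normalized reads in edited blastocysts, against 20.01, 27.6 and 39.3 in controls. All edited samples lay below all controls, which was so for 0.158% of the tested genes. As LAMA1 was chosen from these same values, that share lends it no support. It met the filter through the controls, with a mean of 28.9 normalized reads there and 8.39 in edited blastocysts. Edited samples 1 to 6 held 20, 3, 5, 4, 4 and 25 of its reads. LAMA1 differed by -1.89 ± 0.39 on the log2 scale (SE, n = 6 each, limma adjusted p = 0.259), with an adjusted p of 0.0405 in DESeq2 and 0.557 in edgeR on recovered reads, and the authors' deposited table lists 0.0628. Over all alternatives and all fits without 1 sample its adjusted p lay between 0.0405 and 0.771, and its log2 fold change between -2.15 and -1.43. COL1A2, a collagen gene listed among the markers of ovarian somatic cells, averaged 16.3 ± 8.78 normalized reads in edited and 31.6 ± 7.88 in control blastocysts (SD, n = 6 each) and did not pass (limma adjusted p = 0.792). The 9 such markers with a row summed to 35.4 to 86.3 normalized reads in edited and 55.9 to 139 in control blastocysts, and the part of such cells in the LAMA1 values was not tested. In mouse Lama1 was below the filter, at 7.63 and 10.6 normalized reads in edited morulae, against 14.5 and 6.32 in controls.

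**Figure D5:**
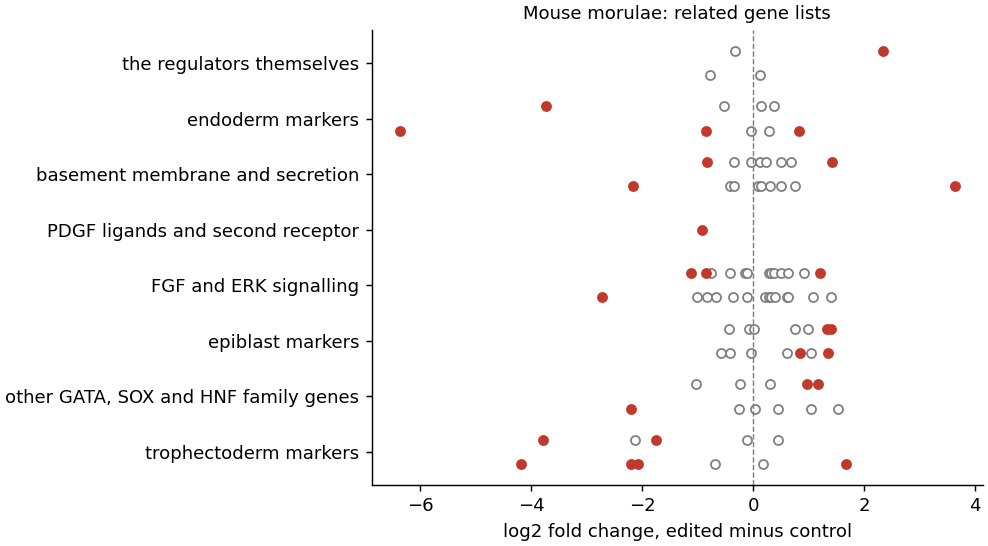
Log2 fold change, edited minus control, of the tested regulators and of the tested members of 7 related gene lists in mouse morulae; each point is a gene, filled where the adjusted p from limma is under 0.05, and the vertical offset only separates points. The regulators lie between -0.78 and 2.34, and Lrp2 at -6.36 is the lowest point.

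Among the ligand and receptor genes that act on these regulators, Pdgfa and Fgfr2 fell in mouse. Pdgfa, the ligand gene of Pdgfra, stood at 189.7 and 298.4 normalized reads in edited morulae, against 364 and 555 in controls, and its log2 fold change was -0.92 ± 0.24 (SE, n = 2 each, limma adjusted p = 0.0100). That call was lost without edited library 1 and without control library 2. Pdgfb and Pdgfrb were below the filter. Of 28 genes of FGF and ERK signalling 27 were tested, of which 3 fell and 1 rose, at a median of 0.29. These 4 calls of 27 are a share close to the 15.3% called over all genes. Fgfr2, a receptor for FGF4, stood at 130.6 and 130.4 normalized reads in edited morulae, against 258 and 218 in controls (-0.86 ± 0.24, limma adjusted p = 0.0164), and its call was lost when either control library was left out. Fgfr1 (0.63) and Fgf4 (0.61) did not pass. Dusp4, a phosphatase gene induced by ERK, fell (-2.72 ± 0.32), and Etv5, an ETS factor gene that responds to FGF, rose to a mean of 252 normalized reads in edited morulae, against 109 in controls (lost without control library 1). Without edited library 2, 5 genes of the list fell and 3 rose. In cattle FGFR1 and FGFR2 were below the filter, and none of the 19 tested genes of this list passed with limma, edgeR or DESeq2, while 1 had an unadjusted p under 0.05 in limma.

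Of the 14 epiblast markers tested in mouse, 4 rose and 0 fell in limma at a median of 0.69, although 4 fell without edited library 2. The median was 0.02 over the 11 markers with a mean of at least 50, of which the same number rose. Those that rose were Pou5f1 (1.40), Tdgf1 (1.35), Klf2 (1.33) and Esrrb (0.84), the last of which was lost in 3 of the fits that left out 1 library. Nanog (-0.58 ± 0.25, adjusted p = 0.122) and Sox2 (1.04 ± 0.44, adjusted p = 0.117) did not pass in limma. Among 11 tested relatives of the regulators in the GATA, SOX and HNF families, Gata3, a trophectoderm factor, fell (-2.20 ± 0.20), and Sox15 (0.98 ± 0.19) and Sox12 (1.16 ± 0.39) rose. Both rises were lost without control library 2, and that of Sox12 also without control library 1, without edited library 1, without the filter on low values and with DESeq2. Of 11 tested trophectoderm markers 5 fell, among them Id2 (-4.17), Krt18 (-3.79) and Cdx2 (-2.06), and 1 rose. The call of Krt18 was lost with robust limma and that of Cdx2 when either control library was left out. In cattle NANOG ranged from 0.648 over a median of 21.5 to 226 normalized reads in edited blastocysts, against 0, 22.1 and 172 in controls. Its highest samples, edited 3 and control 3, were also the highest for PDGFRA. In edited 2, control 4 and control 5, also in the upper PDGFRA range, NANOG stood at 31.5, 19.6 and 53.6. It stood at 56.8 in edited 6, which lies in the lower PDGFRA range. A relation between NANOG and PDGFRA was not tested.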

How the data were processed

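Per the labels' protocols, Smart-seq2 libraries were prepared from polyadenylated RNA of morulae (mouse) and blastocysts (cattle). The submitters' processing notes list the tools Trimmomatic, HISAT2, featureCounts and DESeq2 without versions, as well as the builds mm10 and ARS-UCD1.2. Nothing in the sources used here gives the annotation, the strand setting or how reads matching several places were counted. By their headers and values, the deposited signal values are read counts of genes over a size factor of DESeq2 for each sample. All values were whole multiples of the value of 1 read within 0.05 reads (100%), so whole reads were recovered. No listed gene had fewer than 11 reads over all mouse samples or 16 over all bovine ones. The authors' deposited table also holds log2 fold changes, p-values and a test statistic, a score that was not used, and these are quoted only under that name.

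Groups and replicate numbers came from the sample titles. The members, lists, rule for named genes and tests were chosen with earlier results of these data known. Each table was tested alone with limma 3.58.1 in R 4.3.3 on the scale log2(value + 1), with a trend and two-sided, as edited minus control, for genes with a mean of at least 10, with Benjamini-Hochberg adjustment over all tested genes of the table. This scale understates changes of low genes. The named genes are the regulators, TEAD4, Nanog, Sox2, Fgf4, Fgfr1 and Fgfr2, up to 4 called members per list with the largest change, and the 5 genes nearest to each bovine regulator. Further genes are given to describe a list. Some genes that the rule takes, and results that rest on them, are not reported here. Alternatives were pseudocounts of 0.5 and 5, no filter or a mean of at least 50, robust limma, edgeR 4.0.16 and DESeq2 1.42.0 on recovered reads, scaling to equal totals, the replicate number as a block and leaving out each sample. The 18 relations with list genes were added after values had been seen. Correlations used 100000 permutations, two-sided. Scripts were tested on simulated data. Mouse coordinates and lengths are from GENCODE M21 (GRCm38, 89.1% of names matched). A description of promoter motifs was planned and not run, as no sequence of the promoters was at hand.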

Additional observations from a re-analysis of the deposited data

How the results depend on the processing

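Gata4 passed in mouse under all 8 alternatives that could test it, at log2 fold changes of 1.89 to 2.48 and adjusted p of 0.00390 to 0.0140. With a mean of at least 50 it was not tested, so 0 regulators were called there instead of 1. Over the fits without 1 mouse library the regulators called stayed at 1, while all genes called ranged from 580 to 2588 (1742 with all libraries) and called genes of the related lists from 15 to 37 (25 with all libraries). On recovered reads edgeR called 1670 mouse genes and DESeq2 1354. Scaling to equal totals turned the share of higher genes among the calls to 61.9%, against 45.2%. In cattle the regulators called were 0 in every alternative and every fit without 1 sample. All genes called numbered 1, or 5 with DESeq2, where 1 gene of the related lists was called instead of 0. Over the fits without 1 bovine sample these counts were 1, 0 and 0 throughout, and the correlated pairs of regulators ranged from 0 to 1.

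Signs that turned belonged to regulators that did not pass. Sox17 turned to 0.45 with edgeR, 0.40 with DESeq2 and 1.32 without edited library 1. HNF4A turned to -0.38 with edgeR and -0.34 with DESeq2. Without 1 library Pdgfra ranged from -0.28 to 0.54 and Sox17 from -0.99 to 1.32, PDGFRA from -0.33 to 0.22 and HNF4A from -0.42 to 0.48. The r of GATA6 ranged from -0.13 to 0.33 with PDGFRA and from -0.22 to 0.61 with HNF4A. The cause was not tested for any of these.

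Replicate numbers are shared between groups, but nothing says that they mark a shared batch. Deviations of same-numbered bovine samples correlated at -0.19 to 0.34, and those of the mouse pairs at 0.11. With the replicate number as a block 1816 mouse genes and 1 bovine gene were called, and no call of a regulator changed. In the fits that left 1 mouse sample in a group, that sample is assumed to vary like the other group. The low counts of Sox17, Hnf4a and bovine GATA4 limit what these data can show about them.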
